A study of Mus musculus with 18 samples.

Results

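Tuft cells are a rare epithelial cell type of the gut, and 8 genes that mark them were followed through whole-colon RNA of mice with past chemical colitis. The genes were Pou2f3, Trpm5, Dclk1, Sh2d6, Avil, Alox5, Ltc4s and Il25. They were chosen by name as known tuft cell genes, with earlier results of these data known, and found by their NCBI gene identifiers. All 8 were among the 18349 genes of the deposited table, and 6 of the 8 reached the level set for testing, which was 1 FPKM in at least 3 libraries. FPKM counts sequenced fragments relative to transcript length and to library size, so levels of different genes can be set side by side, although library totals still differ.

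The tissue was the entire colon of male C57BL/6 mice labelled as wild type, and 18 libraries in 5 groups were sequenced. In 4 groups the mice had taken 2.5% dextran sulfate sodium (DSS), which damages the lining of the colon, in their water for 7 days. Those groups were then gavaged for 5 weeks with Lactobacillus plantarum, a lactic acid bacterium, as strain ZJ316_COM (n = 4), ZJ316_KO (n = 4) or ZJ316_WT (n = 4), or with PBS as the DSS group (n = 3). Control mice (n = 3) drank water without DSS, and no gavage is described for them. What KO and COM denote is not stated in the labels, and replicate numbers are not tied to animals. A p-value here therefore reflects spread among these libraries, which may be technical.

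Tuft cells sense the gut lumen with a signalling cascade shared with taste cells, in which a G protein activates a phospholipase, calcium is released and the cation channel TRPM5 opens. The transcription factor POU2F3 is required for their formation. They release interleukin 25, which activates group 2 innate lymphoid cells, and they make cysteinyl leukotrienes from arachidonic acid. In the mouse small intestine, interleukin 13 from those lymphoid cells in turn expands the tuft cell population.

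The chromosomal position of each gene is given on GRCm38.p6, the assembly of the RefSeq annotation. POU2F3 binds octamer-like DNA, and the octamer ATGCAAAT was searched on both strands of the 250 bases before the RefSeq transcript starts. RefSeq windows were matched for 6 members (Dclk1 with 2 windows, the others with 1), and 0 of these 7 windows held the octamer, which occurred in 1.6% of 32851 mouse windows of the same length. The shorter ATGCAAA, chosen after the sequences were seen, occurred in 1 of the 7 windows and in 4.12% of all windows. That window was the one of Avil, with a match on the opposite strand starting 115 bases before the transcript start and a match on the gene's own strand starting 15 bases before it. Every octamer contains the shorter motif. Such a match is a description of letters and not evidence of binding, and its absence says only that these letters are not in the window. The Avil window is shown for its matches, that of Trpm5 as the channel gene with the closest ties to the other members, and that of Sh2d6 as the member with the largest differences between groups. The Avil window (chr10:127000459-127000708, plus strand) lies inside the RefSeq span of the gene, before a transcript start within it. The Trpm5 window (chr7:143094643-143094892, minus strand) lies next to the gene's span, and the Sh2d6 window (chr6:72520037-72520286, minus strand) lies inside the gene's span. Sequences run 5′ to 3′ on the gene's strand, and capitals mark ATGCAAA or its reverse complement TTTGCAT.
Avil: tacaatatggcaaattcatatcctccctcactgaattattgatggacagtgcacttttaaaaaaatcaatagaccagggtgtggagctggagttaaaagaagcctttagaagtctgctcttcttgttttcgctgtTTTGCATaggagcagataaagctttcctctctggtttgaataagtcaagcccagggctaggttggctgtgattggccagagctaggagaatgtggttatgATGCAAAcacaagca
Trpm5: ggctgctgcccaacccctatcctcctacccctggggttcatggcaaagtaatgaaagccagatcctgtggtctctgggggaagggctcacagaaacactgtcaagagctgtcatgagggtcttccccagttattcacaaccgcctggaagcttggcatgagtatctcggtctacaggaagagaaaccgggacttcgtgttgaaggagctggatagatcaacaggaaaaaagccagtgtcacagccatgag
Sh2d6: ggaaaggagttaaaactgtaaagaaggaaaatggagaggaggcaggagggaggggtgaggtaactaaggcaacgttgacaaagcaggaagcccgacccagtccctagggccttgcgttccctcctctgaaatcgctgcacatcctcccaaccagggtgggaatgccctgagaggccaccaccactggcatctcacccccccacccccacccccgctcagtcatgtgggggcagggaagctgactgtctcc

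Library totals ranged from 517933 to 558590 FPKM, and the number of reads is unknown. Some libraries stood apart from their groups in genes that mark tissues outside the colon mucosa or a position along the gut. Genes of pancreatic acinar cells were high in DSS 1, DSS 3 and ZJ316_KO 3. Genes of squamous epithelium were high in ZJ316_COM 3, ZJ316_KO 3, ZJ316_WT 2, ZJ316_WT 4 and DSS 2. The distal Hox genes Hoxa13, Hoxb13 and Hoxd10 to Hoxd13 mark the hindgut end of the body axis. Their mean log2(FPKM + 1) was lowest in Control 3 (0.89), ZJ316_KO 2 (1.99) and DSS 3 (2.68), against 3.53 to 4.74 in the other 15 libraries. Hoxd10 to Hoxd13 were each lowest in these libraries, but Hoxa13 and Hoxb13 followed only in part. Hoxa13 was at 11.22 FPKM in ZJ316_KO 2 and 9.24 in DSS 3, against 6.62 in ZJ316_COM 2. Hoxb13 was at 199.13 FPKM in DSS 3, against 173.41 in ZJ316_COM 2. The 7 general epithelial markers, such as Epcam and Krt8, had a mean log2(FPKM + 1) between 9.19 and 9.65 in every library.

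Pou2f3 (gene 18988, chromosome 9, 43123927 to 43205755) encodes the transcription factor that specifies the lineage. Its levels were 0.65, 0.35, 0.29 and 0.54 FPKM in ZJ316_COM, 0.91, 1.26, 0.79 and 0.47 in ZJ316_KO, 0.50, 0.67, 0.59 and 0.16 in ZJ316_WT, 0.59, 0.46 and 0.76 in DSS, and 0.48, 0.89 and 1.40 in Control, in the order of the replicate numbers. It was above 0 in all 18 libraries but reached 1 FPKM in only ZJ316_KO 2 and Control 3, so it was not tested, and the groups overlapped.

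Trpm5 (gene 56843, chromosome 7, 143071529 to 143094642) encodes the calcium-activated channel at the end of the taste-like cascade. It stood at 1.80, 2.14, 0.79 and 1.41 FPKM in ZJ316_COM, 1.98, 4.26, 2.61 and 1.92 in ZJ316_KO, 1.20, 1.19, 1.68 and 0.63 in ZJ316_WT, 2.33, 1.48 and 2.52 in DSS, and 0.79, 2.51 and 3.97 in Control. Every ZJ316_KO library lay above every ZJ316_WT library, as was so for 7.83% of all tested genes. The Control libraries spanned nearly the range of the whole series, with Control 1 close to the lowest value and Control 3 second to ZJ316_KO 2.

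Dclk1 (gene 13175, chromosome 3, 55242303 to 55539068) encodes a microtubule-associated kinase that is the usual histological marker of tuft cells in the mouse gut. Its levels were 3.01, 3.96, 2.55 and 2.86 FPKM in ZJ316_COM, 3.64, 4.92, 4 and 2.94 in ZJ316_KO, 2.6, 2.62, 3.03 and 2.42 in ZJ316_WT, 3.68, 3.02 and 4.10 in DSS, and 2.30, 3.94 and 5.76 in Control. The extremes of the series were both in Control, Control 1 being lowest and Control 3 highest. Dclk1 is also expressed in neurons, and whole colon includes the enteric nervous system.

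Sh2d6 (gene 71130, chromosome 6, 72513641 to 72534206) encodes an SH2 domain adaptor with few other known sites of expression. It measured 3.11, 3.44, 1.56 and 2.05 FPKM in ZJ316_COM, 3.64, 8.53, 4.22 and 4.91 in ZJ316_KO, 1.60, 1.40, 2.95 and 1.76 in ZJ316_WT, 3.10, 2.98 and 3.32 in DSS, and 1.28, 4.23 and 5.92 in Control. The ZJ316_KO libraries lay above all libraries of the other gavaged groups, and ZJ316_KO 2 was the highest of the series. Of all tested genes, 3.34% separated in this way from ZJ316_COM, 7.83% from ZJ316_WT and 7.68% from DSS. The DSS libraries were tightly grouped, and those of Control were not.

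Avil (gene 11567, chromosome 10, 127000065 to 127020994) encodes advillin, an actin-bundling protein of the villin family found in the apical tuft and in sensory neurons. Its levels were 2.42, 2.17, 1.47 and 1.87 FPKM in ZJ316_COM, 2.73, 4.67, 3.19 and 2.23 in ZJ316_KO, 2.06, 2.45, 2.32 and 1.58 in ZJ316_WT, 2.79, 2.20 and 3.03 in DSS, and 1.63, 2.89 and 3.68 in Control. All groups overlapped their neighbours, with ZJ316_KO 2 again the highest library.

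Alox5 (gene 11689, chromosome 6, 116410071 to 116461178) encodes 5-lipoxygenase, which starts leukotriene synthesis and which neutrophils, macrophages and mast cells also express. It stood at 1.27, 1.30, 0.64 and 1.28 FPKM in ZJ316_COM, 1.89, 3.67, 1.78 and 1.41 in ZJ316_KO, 1.19, 0.95, 1.16 and 0.85 in ZJ316_WT, 2.09, 1.28 and 2.50 in DSS, and 0.90, 1.53 and 2.10 in Control. All ZJ316_KO libraries exceeded all ZJ316_COM and all ZJ316_WT libraries, and all ZJ316_WT libraries were below the DSS libraries. Of all tested genes, 3.34%, 7.83% and 6.01% showed these separations, in that order.

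Ltc4s (gene 17001, chromosome 11, 50236461 to 50238532) encodes leukotriene C4 synthase, the enzyme that makes the cysteinyl leukotriene LTC4. It was the most abundant member in most libraries, at 5.64, 5.09, 5.21 and 4.18 FPKM in ZJ316_COM, 5.63, 5.72, 6.81 and 5.94 in ZJ316_KO, 5.61, 3.54, 3.88 and 4.62 in ZJ316_WT, 5.99, 3.23 and 5.93 in DSS, and 3.10, 8.34 and 8.14 in Control. The ZJ316_KO libraries lay just above the ZJ316_WT libraries without overlap, as was so for 7.83% of all tested genes. Control 2 and Control 3 were the highest of the series and Control 1 was the lowest.

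Il25 (gene 140806, chromosome 14, 54932695 to 54935837) encodes the cytokine that tuft cells send to innate lymphoid cells. It was listed at 0, 0, 0.07 and 0.14 FPKM in ZJ316_COM, 0.14, 0.22, 0.29 and 0.14 in ZJ316_KO, 0.07, 0.14, 0.15 and 0 in ZJ316_WT, 0.07, 0 and 0.07 in DSS, and 0.21, 0.22 and 0.15 in Control. The 3 DSS libraries were all below the 3 Control libraries, a separation that 10.6% of all tested genes showed. The values fell on evenly spaced steps of about 0.07 FPKM, so neighbouring levels cannot be told apart, and Il25 was too low to be tested.

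**Figure D1:**
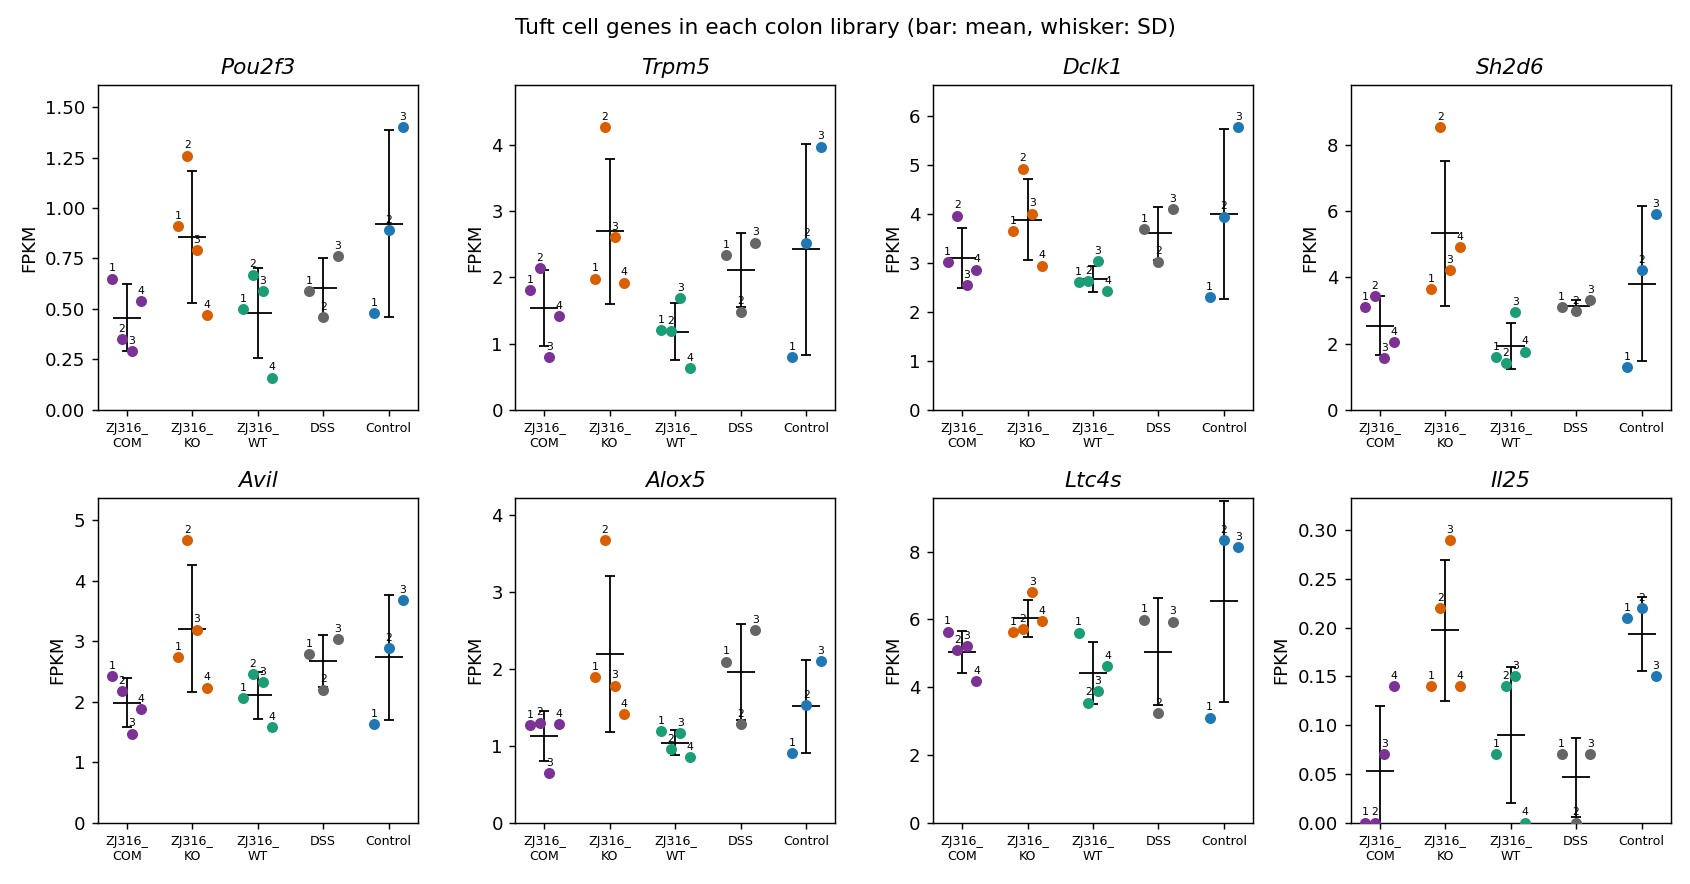
Level of each of the 8 tuft cell genes in FPKM (vertical axis, linear, from 0) in the 18 colon libraries, by group on the horizontal axis. Points are libraries with their replicate number, bars the group mean and whiskers the SD. ZJ316_KO 2 and Control 3 are high for most genes, and Control 1, ZJ316_COM 3 and ZJ316_WT 4 are low.

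The order of the group means was similar for most of the genes. The mean was highest in ZJ316_KO for 5 of the 8 (Trpm5, Sh2d6, Avil, Alox5 and Il25) and in Control for the other 3. It was lowest in ZJ316_WT for Trpm5, Dclk1, Sh2d6, Alox5 and Ltc4s, in ZJ316_COM for Pou2f3 and Avil, and in DSS for Il25. For Trpm5, for example, ZJ316_COM averaged 1.54 ± 0.579, ZJ316_KO 2.69 ± 1.09, ZJ316_WT 1.18 ± 0.429, DSS 2.11 ± 0.554 and Control 2.42 ± 1.59 FPKM (SD, n = 3 or 4). In none of the 8 genes did groups next to each other in the order of means separate, since their libraries overlapped or met at the same value. In bulk tissue, fewer tuft cells and less RNA per tuft cell cannot be told apart.

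None of the 6 tested genes passed limma's F test over the 5 groups, with Benjamini-Hochberg adjustment over the 13263 genes tested. In that test 13.9% of all tested genes passed, so the count does not set these genes apart. The lowest adjusted p were 0.111 for Sh2d6 (unadjusted 0.0287) and 0.124 for Alox5 (unadjusted 0.0347). Differences between groups accounted for 48.7% of the variance of Sh2d6 and 48.4% of that of Alox5. The values were 37.2% for Avil, 36.6% for Trpm5, 32.5% for Dclk1 and 21.9% for Ltc4s, beside a median of 38.4% over all tested genes. Most of the variation of these genes therefore lay between libraries of the same group. Without Control 1, the F test passed for 4 of 6, with adjusted p of 0.0478 for Trpm5, 0.0489 for Dclk1, 0.0150 for Sh2d6 and 0.0386 for Ltc4s, in a fit where 23.5% of all tested genes passed.

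The lasting effect of the DSS course was addressed by DSS mice gavaged with PBS against Control mice. No gavage is described for Control, so the DSS course and the gavage cannot be told apart here. No tested tuft cell gene was called higher or lower: 0 of 6 passed limma's test (adjusted p under 0.05), and 16.9% of all tested genes passed. With 6 genes that vary together, this count does not set them apart from all genes. An unadjusted p under 0.05 was also reached by 0 of 6. Dclk1 averaged 3.60 ± 0.544 FPKM in DSS and 4 ± 1.73 FPKM in Control (SD, n = 3 each), a log2 fold change of -0.067 ± 0.21 (SE; 95% interval -0.50 to 0.37; adjusted p = 0.854). The estimates were -0.034 ± 0.32 for Trpm5 (adjusted p = 0.953), -0.076 ± 0.35 for Sh2d6 (adjusted p = 0.902) and 0.0099 ± 0.21 for Avil (adjusted p = 0.979). Among the leukotriene enzymes Alox5 had 0.24 ± 0.23 (adjusted p = 0.498) and Ltc4s -0.26 ± 0.26 (adjusted p = 0.522). The intervals of Trpm5 (-0.72 to 0.65) and Sh2d6 (-0.81 to 0.66) leave room for changes in either direction. The median change of the 6 genes was -0.051, and that of all tested genes 0.051. Control 1 stood below the other Control libraries in 7 of the 8 genes, all but Il25, and without it Ltc4s was lower in DSS (log2 fold change -0.65, adjusted p = 0.0250). In the fit without Control 1, 27.6% of all tested genes passed in this comparison, against 16.9% with it.

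Against the same Control libraries, 0 of 6 genes passed in ZJ316_COM (7.6% of all tested genes did), in ZJ316_KO (5.14%) or in ZJ316_WT (23.1%), and 0 of 6 had an unadjusted p under 0.05 in each. As the 6 genes vary together, these counts do not set them apart from all genes. All 6 estimates were below 0 in ZJ316_COM (-0.34 to -0.23) and in ZJ316_WT (-0.60 to -0.24), and 5 of 6 were above 0 in ZJ316_KO (-0.0076 to 0.48). The result in ZJ316_WT depended on Control 1: without that library 4 of 6 genes were called lower in ZJ316_WT, namely Trpm5 (-0.96, adjusted p = 0.0146), Dclk1 (-0.66, adjusted p = 0.00869), Sh2d6 (-1.07, adjusted p = 0.00931) and Ltc4s (-0.79, adjusted p = 0.00564). Ltc4s was then also lower in ZJ316_COM (-0.62, adjusted p = 0.0333). Calls rose over the whole table without that library, to 34.9% of all tested genes in ZJ316_WT against 23.1% with it, and to 17.4% in ZJ316_COM against 7.6% with it. The 4 comparisons with Control share its 3 libraries, so they are not independent of each other.

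The effect of each strain after colitis was addressed by comparison with the DSS group. In ZJ316_WT against DSS, 0 of 6 genes passed, as did 0% of all tested genes, and 1 of 6 had an unadjusted p under 0.05. That gene was Alox5, at 1.04 ± 0.164 FPKM in ZJ316_WT (SD, n = 4) and 1.96 ± 0.621 FPKM in DSS (SD, n = 3), with a log2 fold change of -0.52 ± 0.22, an unadjusted limma p of 0.0307 and an adjusted p of 0.9996. Sh2d6 and Alox5 were lower in every ZJ316_WT library than in any DSS library, a pattern shown by 6.01% of all tested genes, and all 6 estimates lay between -0.52 and -0.14. Without the acinar-rich libraries, which leaves 1 DSS library, the estimate was -0.17 for Alox5, -0.21 for Trpm5 and -0.14 for Dclk1, and 0 of 6 had an unadjusted p under 0.05. In ZJ316_KO against DSS, 0 of 6 passed (0.166% of all tested genes), with 0 at an unadjusted p under 0.05 and estimates of 0.075 to 0.56. The median estimate of the 6 genes was 0.20, and 0.026 without ZJ316_KO 2. Sh2d6 was higher in every ZJ316_KO library than in any DSS library, as were 7.68% of all tested genes. In ZJ316_COM against DSS, 0 of 6 passed (0.0151% of all tested genes), 1 of 6 had an unadjusted p under 0.05 (Alox5), and limma estimates ran from -0.47 to 0.027. Alox5 had -0.47 ± 0.22 and a limma adjusted p of 0.448. The share of all tested genes at an unadjusted p under 0.05 was not counted in these comparisons with DSS.

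The widest separation between groups was between the strains ZJ316_KO and ZJ316_WT. It did not pass the adjusted test for any tuft cell gene: 0 of 6 were called in limma, where 0.829% of all tested genes were. An unadjusted limma p under 0.05 was reached by 5 of 6. Those 5 varied together over libraries (pairwise r of 0.825 to 0.955), so they are not separate results. The share of all tested genes under that unadjusted threshold was not counted. Sh2d6 averaged 5.33 ± 2.20 FPKM in ZJ316_KO and 1.93 ± 0.697 FPKM in ZJ316_WT (SD, n = 4 each), with a log2 fold change of 1.08 ± 0.30 (95% interval 0.44 to 1.72; unadjusted p = 0.00247, adjusted p = 0.0807 in limma). Alox5 averaged 2.19 ± 1.01 FPKM in ZJ316_KO and 1.04 ± 0.164 FPKM in ZJ316_WT, with 0.60 ± 0.20 (adjusted p = 0.125 in limma). Trpm5 differed by 0.74 ± 0.28 (adjusted p = 0.161). Avil had 0.42 ± 0.19 and Dclk1 0.40 ± 0.18 (adjusted p = 0.224 and 0.225), and Ltc4s 0.39 ± 0.23 (adjusted p = 0.352). The libraries of Trpm5, Sh2d6, Alox5 and Ltc4s did not overlap, each higher in ZJ316_KO, as was so for 7.83% of all tested genes. The median change of the 6 was 0.51 and that of all tested genes -0.023.

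ZJ316_KO 2, a library with a low distal Hox mean, added to the size of these differences for all tested genes but Ltc4s. Without it the change of ZJ316_KO against ZJ316_WT was 0.87 for Sh2d6, 0.56 for Trpm5, 0.40 for Alox5, 0.30 for Dclk1 and 0.26 for Avil, each still above 0. That of Ltc4s was 0.41, against 0.39 with it. The libraries of Trpm5, Sh2d6, Alox5 and Ltc4s did not overlap without it either. In that fit 2 of 6 genes (Sh2d6 and Alox5) had an unadjusted p under 0.05 in limma, a threshold at which all tested genes were not counted. By adjusted p, 0 of 6 genes and 0.0603% of all tested genes passed. The Sh2d6 difference passed in limma when Control 1 (adjusted p = 0.0285) or Control 3 (adjusted p = 0.0342) was left out or when only these strains' libraries were fitted (adjusted p = 0.0452), and over all 29 alternatives its adjusted p ran from 0.0285 to 0.532. Leaving out a Control library changes no level in either strain, only the spread that the fit estimates. The share of all tested genes that passed in these fits was 3.45% without Control 1, 5.39% without Control 3 and 3.52% with only these strains, against 0.829% with all libraries.

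ZJ316_COM libraries were set against those of ZJ316_KO in the same way. Here 0 of 6 genes passed in limma (0.0302% of all tested genes did) and 3 of 6 had an unadjusted p under 0.05. These 3 also varied together over libraries, and the share of all tested genes under the unadjusted threshold was not counted. Sh2d6 averaged 2.54 ± 0.882 FPKM in ZJ316_COM and 5.33 ± 2.20 FPKM in ZJ316_KO (SD, n = 4 each), a log2 fold change of -0.81 ± 0.30 (adjusted p = 0.349 in limma). The change was -0.55 ± 0.20 for Alox5 (adjusted p = 0.348) and -0.47 ± 0.19 for Avil (adjusted p = 0.373), and those of Trpm5, Dclk1 and Ltc4s were -0.53, -0.25 and -0.22. Sh2d6 and Alox5 did not overlap between these groups, each lower in ZJ316_COM, as was so for 3.34% of all tested genes. Without ZJ316_KO 2 the change was -0.60 for Sh2d6, -0.35 for Alox5, -0.32 for Avil, -0.35 for Trpm5, -0.15 for Dclk1 and -0.24 for Ltc4s, and 0 of 6 had an unadjusted p under 0.05 in limma, the lowest being 0.0649 for Sh2d6. This comparison shares the ZJ316_KO libraries with the one above, so a high value in them moves both. Between ZJ316_COM and ZJ316_WT, 0 of 6 genes passed (0.00754% of all tested genes did), 0 of 6 had an unadjusted p under 0.05 in limma, and estimates ran from -0.059 to 0.27.

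**Figure D2:**
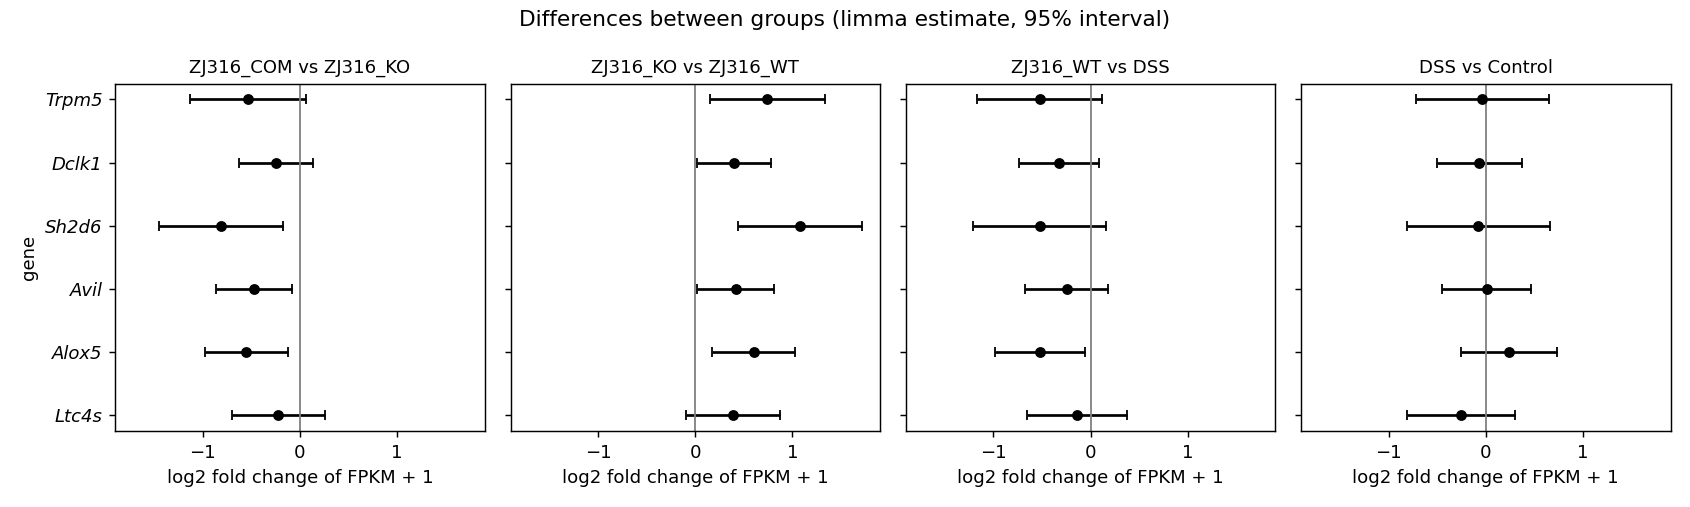
Log2 fold change of FPKM + 1 (horizontal axis) for the 6 tested tuft cell genes (vertical axis) in 4 comparisons, as limma's estimate (point) with its 95% interval (bar). Estimates lie below 0 in ZJ316_COM against ZJ316_KO, above 0 in ZJ316_KO against ZJ316_WT, below 0 in ZJ316_WT against DSS and on either side of 0 in DSS against Control, and no gene passed the adjusted test in any panel.

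The tuft cell genes rose and fell together across libraries. Over the 18 libraries, the 10 pairs among Trpm5, Dclk1, Sh2d6, Avil and Alox5 had Pearson's r of log2(FPKM + 1) between 0.825 and 0.955 and Spearman's rho between 0.746 and 0.965. The closest pair was Trpm5 and Dclk1, with r = 0.955 and rho = 0.965 (permutation p = 1e-05 for each, the smallest that 100000 resamples can give; adjusted p = 1.88e-05 and 2.5e-05 over 15 pairs). Ltc4s followed the others less closely, with r from 0.514 with Alox5 (permutation p = 0.0287, adjusted p = 0.0287) to 0.687 with Dclk1 and rho from 0.655 to 0.770. All 15 pairs passed at an adjusted permutation p under 0.05.

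This co-variation was also present among libraries of the same group. Computed on deviations from the group means, r was 0.748 to 0.948 for the 10 pairs and 0.475 to 0.616 for the 5 pairs with Ltc4s. Leaving out, for each pair, the pair of libraries farthest from the median of the gene on the x axis, mostly ZJ316_KO 2 with Control 3 or ZJ316_WT 4, left r at 0.552 or more. All libraries come from whole tissue, so the correlation describes how tissue samples differ and not single cells.

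**Figure D3:**
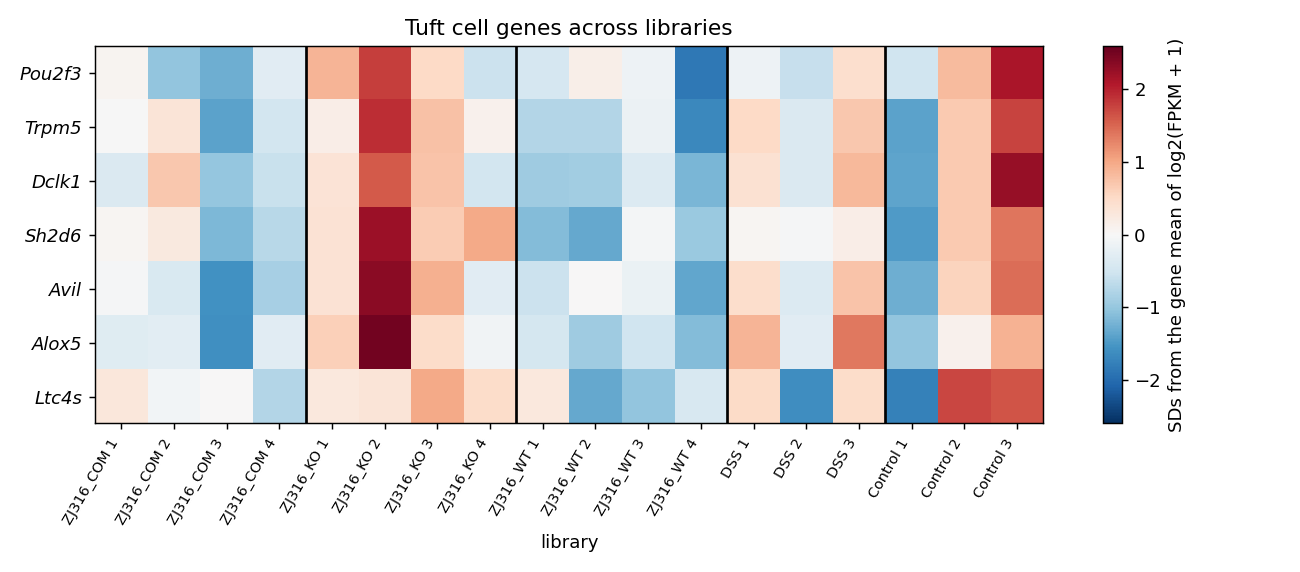
Level of 7 tuft cell genes (rows) in the 18 libraries (columns, grouped, with black lines between groups), as SDs from each gene's own mean of log2(FPKM + 1). Red is above and blue below the mean. Whole columns are red (ZJ316_KO 2, Control 3) or blue (ZJ316_WT 4, Control 1), so the genes move together by library more than by group.

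By Pearson's r, the marker lists of gut position, macrophages, eosinophils and neurons and glia moved with some of these genes or against them. The mean of the distal Hox list correlated negatively with all 6 tested genes, with r from -0.813 (Dclk1) to -0.517 (Ltc4s) over 18 libraries and within-group r from -0.819 to -0.429. By adjusted permutation p under 0.05, 5 of the 6 genes passed by r and 2 of 6 by rho. For Trpm5, r was -0.771 and rho -0.668, with permutation p of 6e-05 and 0.00316 and adjusted p of 0.00216 and 0.0455 over 72 gene and list combinations. Without Control 3 and ZJ316_KO 2, the libraries farthest from the median, r was -0.572 (permutation p = 0.0185). Over the 15 libraries whose distal Hox mean was not low, Trpm5 had r = -0.522 and rho = -0.450 (permutation p = 0.0463 and 0.0933). Dclk1 had r = -0.456 and rho = -0.471 (permutation p = 0.0894 and 0.0788), and Sh2d6 had r = -0.532 (permutation p = 0.0428). Over the same libraries r was -0.402 for Avil (permutation p = 0.138), -0.375 for Ltc4s (permutation p = 0.169) and -0.307 for Alox5 (permutation p = 0.266). These p-values are unadjusted, 2 of the 6 genes were under 0.05 by r and 0 by rho, and the strength of the relation rests in part on those 3 libraries. With the Hox mean as a covariate, the ZJ316_KO against ZJ316_WT change was 0.84 for Sh2d6 (limma adjusted p = 0.0641), 0.51 for Trpm5 (adjusted p = 0.165) and 0.44 for Alox5 (adjusted p = 0.124). The tissue is given as the entire colon, and no stretch of it is named for any library. The part of gut position in the differences was not tested beyond these values.

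**Figure D4:**
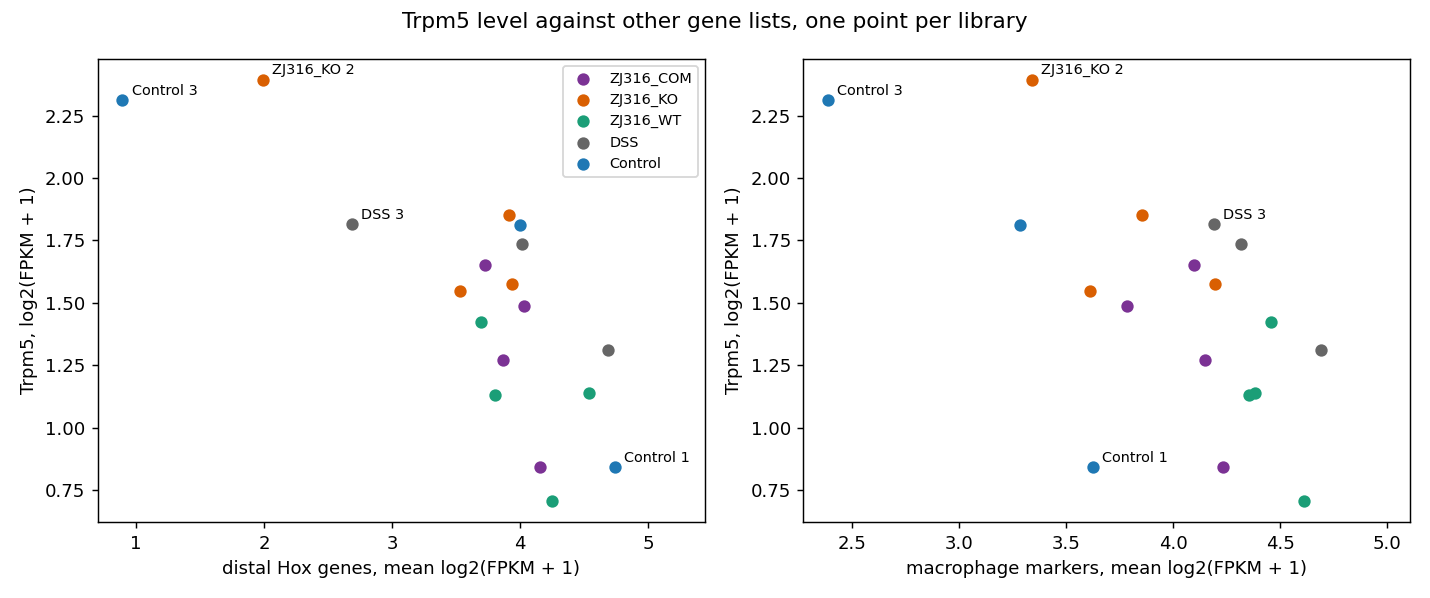
Trpm5 level as log2(FPKM + 1) (vertical axis) against the mean log2(FPKM + 1) of 6 distal Hox genes (left) and of 8 macrophage markers (right), with 1 point per library coloured by group. Trpm5 is lower where the Hox mean is higher (r = -0.771), and Control 3, ZJ316_KO 2 and DSS 3 lie apart at the low end of the Hox axis.

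The 8 macrophage markers, such as C1qa and Csf1r, gave r from -0.644 (Dclk1) to -0.434 (Alox5), and 4 of the 6 genes passed by r but 0 of 6 by rho (adjusted permutation p under 0.05). Without Control 3 and Control 2, the libraries farthest from the median of these markers, their r was -0.527 to -0.331. Their mean log2(FPKM + 1) was 3.78 to 4.23 in ZJ316_COM, 3.34 to 4.19 in ZJ316_KO, 4.36 to 4.61 in ZJ316_WT, 4.19 to 4.69 in DSS and 2.39 to 3.63 in Control. Epithelial markers did not move with the tuft cell genes, with r from -0.033 to 0.28. The eosinophil list gave r from 0.343 to 0.695 and rho from 0.443 to 0.800. By adjusted permutation p under 0.05, 3 of the 6 genes passed by r and 3 by rho. However, that list's only marker at a level to be tested was Siglecf, which tuft cells also express. Its other markers were near 0, with at most 0.99 FPKM of Prg2, 0.06 of Epx and 0.22 of Ccr3. The r of the remaining lists ran from -0.528 to -0.232 for fibroblast, -0.506 to -0.385 for squamous, -0.430 to -0.225 for neutrophil, -0.322 to -0.096 for enteroendocrine, -0.197 to 0.187 for mast cell, 0.111 to 0.392 for acinar, 0.168 to 0.323 for smooth muscle and 0.373 to 0.642 for neuron and glia genes. Of these 8 lists, only that of neurons and glia held adjusted permutation p under 0.05 for r, for 2 of the 6 genes, and it had 0 for rho. Without Control 2 and Control 3, the libraries farthest from its median, its r was 0.104 to 0.490. What part any of these cell types had in the tuft cell levels was not tested.

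Genes most like the tuft cell genes were ranked by Pearson's r with a core level, the mean log2(FPKM + 1) of Trpm5, Pou2f3, Sh2d6 and Avil over the 18 libraries. The highest were Sh2d7 (r = 0.959, rho = 0.954), which encodes an SH2 domain adaptor related to SH2D6, Cdkn1c (r = 0.954), a cell cycle inhibitor, and Mon1a (r = 0.940), which acts in vesicle traffic. Other genes among the 10 highest were Slc50a1 (0.907), a sugar transporter, B4galnt1 (0.899), a ganglioside synthase, and Matk (0.899), a tyrosine kinase. Wtip (0.897), Spcs1 (0.895), a signal peptidase subunit, and Cpn1 (0.892) were also among them. Sh2d7 ranged from 0.83 to 3.99 FPKM and Slc50a1 from 58.5 to 108.53 FPKM, so likeness of pattern is no likeness of level.

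The members themselves ranked high when the core was computed without the gene in question. Trpm5 was at rank 1 of 13261, Avil at 4, Sh2d6 at 12, and, outside the core, Dclk1 at 4, Alox5 at 7 and Ltc4s at 695 of 13260. Of 24 tested genes from a wider list of tuft cell genes, 15 had r above 0 and 9 below 0, with a median of 0.244. The 4 that ranked highest were Matk at 9, Siglecf at 42, Rgs13, a regulator of G protein signalling, at 60, and Gnat3, the taste G protein gustducin, at 63. The 3 that ranked lowest were Lrmp, also expressed in lymphocytes, with r = -0.79, Hpgds, a prostaglandin D synthase, with r = -0.567, and Vav1, a signalling protein of leukocytes, with r = -0.561. The core level itself was 0.97 to 1.51 in ZJ316_COM, 1.59 to 2.33 in ZJ316_KO, 0.94 to 1.45 in ZJ316_WT, 1.38 to 1.69 in DSS and 0.997 to 2.15 in Control, with ZJ316_KO 2 and Control 3 at the top.

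From a wider list of tuft cell genes, several were higher in DSS than in Control. Of 24 tested genes, 7 rose and 0 fell in limma, where 11.6% of all tested genes rose and 5.31% fell. The largest were Inpp5d (0.98 ± 0.22, adjusted p = 0.00842), which encodes the lipid phosphatase SHIP1, Alox5ap (0.88 ± 0.19, adjusted p = 0.00783), which encodes the protein that presents arachidonic acid to 5-lipoxygenase, and Fyb (0.82 ± 0.13, adjusted p = 0.00135), an adaptor. Vav1 (0.62 ± 0.14), Ptpn6 (0.61 ± 0.17), Plcb2 (0.56 ± 0.12) and Runx1 (0.56 ± 0.12) followed. These 7 did not follow the core level of the tuft cell genes over the libraries. Their r with it was -0.561 for Vav1, -0.380 for Inpp5d, -0.287 for Runx1, -0.282 for Fyb, -0.282 for Alox5ap, -0.281 for Ptpn6 and 0.014 for Plcb2. Alox5ap averaged 7.30 ± 0.977 FPKM in DSS and 3.60 ± 1.22 FPKM in Control (SD, n = 3 each). All 7 are also expressed in leukocytes, and 8 of 8 macrophage markers and 4 of 4 tested neutrophil markers rose in the same comparison, and what part leukocytes had in these 7 was not tested. The 7 calls became 2 without the libraries high in squamous genes, where 2.33% of all tested genes were called. Removal of those high in acinar genes leaves 1 DSS library, so its count of calls is not given. With only the DSS and Control libraries fitted, 0% of all tested genes were called, so that fit says nothing of the list.

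Against Control, the list gave 2 higher and 1 lower gene in ZJ316_COM, where 5.26% of all tested genes were higher and 2.34% lower. It gave 1 higher and 0 lower in ZJ316_KO (3.69% and 1.46% of all tested genes) and 6 higher and 2 lower in ZJ316_WT (14.7% and 8.35%). Rgs13 was among those lower in ZJ316_WT, at 2.30 ± 0.610 FPKM in ZJ316_WT (SD, n = 4) and 3.92 ± 0.939 FPKM in Control (SD, n = 3), with a limma log2 fold change of -0.58 ± 0.20 and adjusted p = 0.0471. No gene of the list was called between any of the 4 groups of DSS-treated mice (adjusted p under 0.05 in limma, in 6 comparisons). At most 0.829% of all tested genes were called there, so the count does not set the list apart. Of the 9 listed genes too low to be tested, Gnb3 reached at most 0.27 FPKM, Gfi1b 0.58 and Chat, the acetylcholine synthase, 0.71.

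In the taste-like cascade, 1 of 5 tested genes rose in DSS against Control, where 11.6% of all tested genes rose, so the count does not set these genes apart. It was Plcb2 again, the phospholipase downstream of the G protein, at 2.10 ± 0.141 FPKM in DSS and 1.11 ± 0.231 FPKM in Control (SD, n = 3 each). The sweet and umami receptor genes Tas1r1 and Tas1r2 reached at most 0.17 and 0.02 FPKM, and Tas1r3 0.81 FPKM. Gustducin (Gnat3) varied from 0.19 to 2.30 FPKM across the libraries.

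Among 17 tested genes of eicosanoid synthesis and response other than the members, 5 rose and 1 fell in DSS against Control (limma, adjusted p under 0.05), beside 11.6% and 5.31% of all tested genes. Besides Alox5ap, the genes that rose were Ggt5 (0.65 ± 0.12) and Dpep2 (0.59 ± 0.16), which act in the trimming of cysteinyl leukotrienes, Cysltr1 (0.54 ± 0.14), a receptor for them, and Pla2g4a (0.48 ± 0.15), the phospholipase that frees arachidonic acid. Mgst3, a microsomal glutathione transferase, fell by 0.51 ± 0.11 on the log2 scale (763 ± 26.1 FPKM in DSS, 1089 ± 122 FPKM in Control; SD, n = 3 each). Against Control, 1 was higher and 1 lower in ZJ316_COM (5.26% and 2.34% of all tested genes), 1 was higher in ZJ316_KO (3.69%), both near the share of all genes, and 7 were higher and 3 lower in ZJ316_WT (14.7% and 8.35%). The count was 0 in every comparison among DSS-treated groups, where at most 0.829% of all tested genes passed. In DSS against Control the 6 calls became 0 without the squamous-rich libraries, in a fit that called 2.33% of all tested genes. Removal of the acinar-rich libraries leaves 1 DSS library, so its count of calls is not given.

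Of 14 tested genes of the type 2 circuit that tuft cells feed, 2 rose in DSS against Control, a share near the 11.6% of all tested genes that rose. Il1rl1, the receptor for interleukin 33, averaged 5.59 ± 0.777 FPKM in DSS and 1.75 ± 0.903 FPKM in Control (SD, n = 3 each; 1.30 ± 0.23, limma adjusted p = 0.00292). Il13ra1, a subunit of the interleukin 13 receptor, rose by 0.42 ± 0.085 (adjusted p = 0.00555). The same pair rose in ZJ316_KO and in ZJ316_WT against Control, and Il13ra1 alone in ZJ316_COM, beside 3.69%, 14.7% and 5.26% of all tested genes. The cytokine genes themselves were close to the floor, with Il13 at no more than 0.19 FPKM and Il5 at no more than 0.23 FPKM in any library. Il4 and Il9 were not among the 18349 genes of the deposited table. The interleukin 25 receptor gene Il17rb ranged from 0.81 to 2.02 FPKM and was not called in any comparison.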

How the data were processed

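The tissue was whole colon, and its total RNA was read on the DNBSEQ platform, per the labels' protocols. The authors deposited their expression values as FPKM, in a single table of 18349 genes by 18 libraries rounded to 2 decimals. The build is mm10, per the submitters' processing notes. Neither the aligner nor the quantification program nor the annotation is named in the sources used here. RefSeq (GRCm38.p6) supplied symbols for 18230 identifiers, coordinates and promoter sequences. Titles gave the groups.

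FPKM is not a count, so log2(FPKM + 1) was tested, which understates changes of low genes. All 18 libraries and the 13263 genes at 1 FPKM or more in at least 3 of them were fitted together in limma 3.58.1 (R 4.3.3), with a mean-variance trend. The 10 contrasts were two-sided, and calls needed a Benjamini-Hochberg adjusted p below 0.05. The model was tested on simulated data with 200 known changes. Correlation p-values came from 100000 resamples. No library pair shared more than 2.65% of their nonzero values, and all were used as separate samples.

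The 8 genes and all lists were chosen with earlier results of these data known. All 8 are described. Test values are given for every tested member in DSS against Control, and the further contrasts shown were chosen after values were seen. From each wider list, the genes called in DSS against Control were named, at most 6 by size. Runx1, the 7th, and genes named for their low level, their rank or a call against Control in a strain group were chosen after their values were seen. Of the 10 genes most like the core level, with predicted genes left out, 1 is not reported here. Alternatives were a pseudocount of 0.1, no filter, a filter of 5 FPKM, quantile normalization, conversion to TPM, a fit to only the groups compared, a replicate block, an epithelial or distal Hox covariate, removal of the libraries that stood apart, and each library left out.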

Additional observations from a re-analysis of the deposited data

Results flagged for a closer look

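Alox5, which encodes 5-lipoxygenase, was measured at 0.64 FPKM in ZJ316_COM 3, while the other ZJ316_COM libraries lay between 1.27 and 1.30 FPKM. The gap to the nearest of the others was 0.955 of the range of the group, above the 95% critical value of Dixon's test for 4 samples. This was the only such case among 24 groups of 4 libraries examined over the 8 genes, and chance alone gives about 1 in 20. ZJ316_COM 3 was also the lowest ZJ316_COM library for Pou2f3, Trpm5, Dclk1, Sh2d6 and Avil, and it was high in squamous epithelial genes, with a mean log2(FPKM + 1) of 5.02 against 0.40 to 0.61 in the other ZJ316_COM libraries. The part of that tissue in the low value was not tested.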

How the results depend on the processing

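No tuft cell gene passed limma's test in 6 of the 10 comparisons under any alternative. Calls appeared in 3 settings. With only the 2 groups compared, the count for ZJ316_KO against ZJ316_WT was 1. With each library left out in turn, the number of genes called ran from 0 to 1 in DSS against Control, in ZJ316_COM against Control and in ZJ316_KO against ZJ316_WT, from 0 to 4 in ZJ316_WT against Control and from 0 to 4 in the F test, with the calls arising without Control 1 and, for Sh2d6, without Control 3. Without any filter, Pou2f3 and Il25 were tested too, and 0 of 8 were called. At the filter of 5 FPKM only Ltc4s was left.

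The small changes in DSS against Control had no stable sign. Trpm5 turned to 0.030 at a pseudocount of 0.1, 0.011 as TPM, 0.16 with the Hox covariate, 0.20 without low-Hox libraries and 0.12 without squamous-rich libraries. In these last 3 settings Dclk1 turned to 0.059, 0.10 and 0.027, and in the Hox covariate and low-Hox settings Sh2d6 turned to 0.12 and 0.23. Avil turned to -0.21 after quantile normalization, -0.17 with the epithelial covariate and -0.18 without acinar-rich libraries, where Alox5 was -0.11 and Ltc4s in ZJ316_WT against DSS was 0.34. Removal of the acinar-rich libraries leaves 1 DSS library, so those 3 values rest on it. Leaving out each library gave -0.44 to 0.29 for Trpm5, -0.34 to 0.18 for Dclk1, -0.54 to 0.26 for Sh2d6 and -0.22 to 0.19 for Avil. The cause was not tested. In ZJ316_KO against ZJ316_WT and in ZJ316_COM against ZJ316_KO each of the 6 genes kept its sign under every alternative run. The median r between members was 0.845, and 0.809 without low-Hox libraries.

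The replicate block changed no call of the 6 genes, and Sh2d6 in ZJ316_KO against ZJ316_WT kept 1.08 (adjusted p = 0.114). Same-numbered libraries did not pair: over 33 pairs the median correlation of deviations was 0.013, and 3 libraries correlated best with their own number.

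Read depth is unknown. Pou2f3 and Il25 lay mostly or wholly below 1 FPKM, which limits the precision of their values.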
